A study of Mus musculus with 8 samples.

Results

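Leukocyte adhesion molecules of the vessel wall, and the selectin ligand PSGL-1 of leukocytes, were examined in mouse livers after ischemia and reperfusion. The group comprised 7 of the 54532 listed genes and was chosen by symbol, with earlier results of these data known. Its members were Sele (E-selectin), Selp (P-selectin), Selplg (PSGL-1), Icam1, Icam2, Vcam1 and Madcam1. Livers from 4 METTL3-HKD mice were compared with livers from 4 METTL3-Flox mice. METTL3-HKD mice carried METTL3 flox/-; Alb-iCre, a hepatocyte knockdown in which the albumin promoter drives Cre, and METTL3-Flox littermates carried METTL3 flox/flox. Both groups were on a C57BL/6 background, had exon 4 of Mettl3 floxed, and underwent 1 h of partial warm ischemia followed by 6 h of reperfusion. The study used reduced rather than complete loss of METTL3 in hepatocytes, because mice with the complete hepatocyte knockout died. No livers without ischemia belong to these 8 samples, and ages were not given in the sources used here.

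Selectins are lectins that catch leukocytes from flowing blood and let them roll on the vessel wall. E-selectin is made by activated endothelium, whereas P-selectin is stored in endothelial cells and platelets and moves to the surface on stimulation. PSGL-1, carried by leukocytes, is the main ligand of P-selectin and also binds the other selectins. Rolling cells then stop when their integrins bind ICAM-1, ICAM-2 or VCAM-1, which belong to the immunoglobulin superfamily. MAdCAM-1 directs lymphocytes to the gut wall. In liver sinusoids, leukocyte arrest is known to depend less on selectins than in the venules of other organs.

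Reads on genes were similar between groups, at 15961479 to 18434488 in METTL3-HKD livers and 15861245 to 17262991 in METTL3-Flox livers. The library sizes by which the FPKM had been scaled did not overlap, at 18063236 to 20114825 and 14210943 to 16158035. Levels are given as FPKM, that is, fragments scaled to gene length and library size, so they can be compared between genes. Tests used limma on log2(FPKM + 0.1) across 16645 genes, and a gene was called at a Benjamini-Hochberg adjusted p under 0.05. Mettl3 itself was at 1.33 ± 0.181 FPKM (SD, n = 4) in METTL3-HKD livers and 1.50 ± 0.282 FPKM (SD, n = 4) in METTL3-Flox livers. Its log2 fold change was -0.16 (limma, adjusted p = 0.556), so the level of the whole gene did not separate the labelled genotypes. It shares 933 exon bases with Tox4, and Cre under the albumin promoter leaves the floxed allele uncut in other liver cells. Whether the minus allele of METTL3-HKD mice is wild-type or null was not clear from the sources used here. The study itself reported METTL3 ablation specific to the liver in these mice. Why the whole-gene level did not differ here was not tested. In whole liver, fewer cells of a type and less RNA per cell cannot be told apart.

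Of the 6 tested members, 3 were higher in METTL3-HKD livers, against 9.05% of all genes tested, and 0 were lower (also 0 by voom and at an unadjusted p under 0.05), against 6.63%. These were Sele, Selp and Selplg. All 3 also had a log2 fold change of at least 1, which 4.70% of all genes tested reached in the higher direction with an adjusted p under 0.05. In the lower direction 0 members did so, against 1.52% of all genes. In each of these 3, all METTL3-HKD livers lay above all METTL3-Flox livers, an arrangement seen in 12.7% of all genes tested. The opposite arrangement was seen in 0 members and in 9.95% of all genes. Icam1, Icam2 and Vcam1 did not pass the test and overlapped between groups, and Madcam1 had no reads in any liver. The median log2 fold change of the 6 tested members was 1.00, beside -0.00 over all genes tested.

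**Figure D1:**
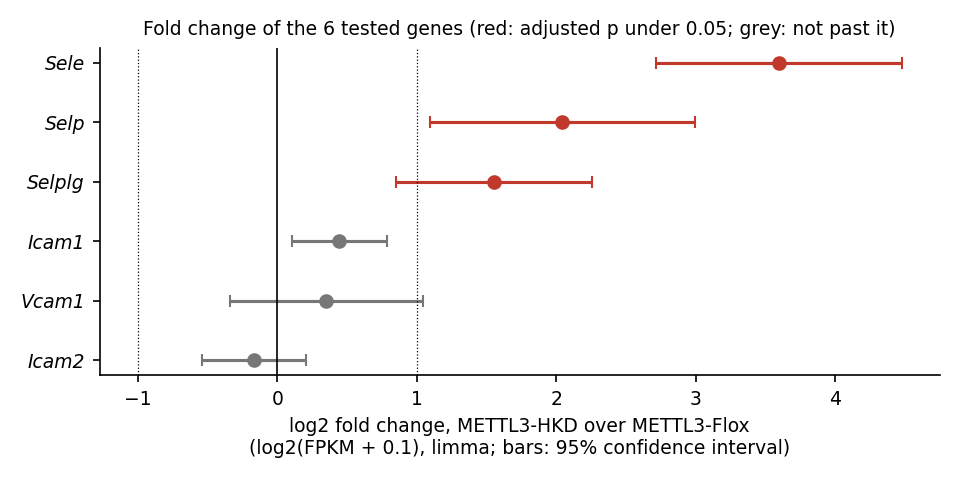
Log2 fold change of METTL3-HKD over METTL3-Flox livers on the horizontal axis, on the log2(FPKM + 0.1) scale, for the 6 tested genes, with 95% confidence intervals from limma as bars and dotted lines at -1 and 1. The intervals of Sele (2.72 to 4.48), Selp (1.09 to 2.99) and Selplg (0.85 to 2.25) lie wholly above 0, and so does that of Icam1 (0.11 to 0.79), whose adjusted p was 0.0751.

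Sele (ENSMUSG00000026582) and Selp (ENSMUSG00000026580) lie on the plus strand of chromosome 1. In GRCm38, Sele runs from 164048234 to 164057677 and Selp from 164115264 to 164150026. RefSeq promoter sequences for GRCm38.p6 were matched for Sele, Selp, Icam1 and Madcam1, 4 of the 7 members, and Selplg, Icam2 and Vcam1 had no entry. The 250 bases before the RefSeq start of the 3 expressed genes are shown because E-selectin, P-selectin and ICAM-1 are known as cytokine-inducible genes. All are on the plus strand and read 5′ to 3′, from chr1:164047984-164048233 for Sele, chr1:164115014-164115263 for Selp and chr9:21015690-21015939 for Icam1. Capitals mark matches to AP-1 (TGANTCA), ATF/CRE (TGACNTCA), the TATA box (TATAAA) and a kB-like pattern (GGNNNTTCC), each sought on both strands.
Sele: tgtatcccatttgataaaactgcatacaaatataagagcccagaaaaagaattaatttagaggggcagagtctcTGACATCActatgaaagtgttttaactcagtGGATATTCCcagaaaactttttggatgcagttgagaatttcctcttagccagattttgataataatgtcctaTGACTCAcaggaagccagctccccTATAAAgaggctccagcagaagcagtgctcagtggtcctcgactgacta
Selp: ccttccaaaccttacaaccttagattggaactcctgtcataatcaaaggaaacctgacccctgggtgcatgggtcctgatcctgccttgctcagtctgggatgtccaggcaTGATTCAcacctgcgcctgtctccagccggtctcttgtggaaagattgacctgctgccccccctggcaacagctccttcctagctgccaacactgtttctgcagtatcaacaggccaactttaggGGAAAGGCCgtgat
Icam1: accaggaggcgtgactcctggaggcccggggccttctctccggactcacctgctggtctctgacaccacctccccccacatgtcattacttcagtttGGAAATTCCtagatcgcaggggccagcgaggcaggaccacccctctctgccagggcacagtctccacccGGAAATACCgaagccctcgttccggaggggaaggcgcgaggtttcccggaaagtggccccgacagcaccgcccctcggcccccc

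The Sele window held 1 match to each pattern, with the ATF/CRE match 176 to 169 bases before the start, the kB-like match 145 to 137, the AP-1 match 73 to 67 and the TATA box 49 to 44. The Selp window held an AP-1 match 139 to 133 bases before the start and a kB-like match on the minus strand at 14 to 6. The Icam1 window, which ends 45 bases before the start listed for the gene in the expression table, held 2 kB-like matches, at 153 to 145 on the plus strand and at 84 to 76 on the minus strand. Among 32851 promoters of this length, 6.75% held the AP-1 pattern, 7.49% the ATF/CRE pattern, 12.4% the TATA box and 15.7% the kB-like pattern. The kB-like pattern was chosen after the sequences had been read. The stricter NF-kB consensus was found in 7.25% of promoters and had no match in these 3 windows. The Madcam1 window (chr10:79664309-79664558) held 2 matches to it, which are also matches to the kB-like pattern. A match of letters describes a window and does not show that a factor binds there.

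Sele showed the largest fold change of the 6 tested members. It was at 3.23, 2.25, 1.03 and 2.86 FPKM in the 4 METTL3-HKD livers, from 189, 121, 54 and 155 reads. In the 4 METTL3-Flox livers it was at 0.217, 0.0850, 0.0452 and 0.0427 FPKM, from 9, 4, 2 and 2 reads. Every METTL3-HKD liver was therefore above every METTL3-Flox liver, and METTL3-Flox livers 3 and 4 lay below the level that 3 reads give, which was between 0.0512 and 0.0725 FPKM over the 8 libraries. Group means were 2.34 ± 0.965 and 0.0976 ± 0.0823 FPKM (SD, n = 4 each). The log2 fold change was 3.60 (SE 0.389, limma adjusted p = 0.00224), rank 83 of 16645 genes by fold change and rank 50 by p. Because METTL3-Flox values were close to the pseudocount of 0.1 FPKM, this figure understates the difference. In reads scaled for library size, 519 in METTL3-HKD livers stood against 17 in METTL3-Flox livers, a ratio of 25.0 (95% exact interval 15.5 to 43.3, counting error only). By mean level, Sele stood at the 50.7 percentile of tested genes in METTL3-HKD livers and at the 4.77 percentile in METTL3-Flox livers.

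Selp was also higher in METTL3-HKD livers, by a smaller factor and from a higher control level. Its FPKM values were 4.62, 2.16, 1.14 and 3.37 in METTL3-HKD livers and 0.861, 0.673, 0.388 and 0.338 in METTL3-Flox livers. No liver crossed between groups, although METTL3-HKD liver 3 and METTL3-Flox liver 1 were near each other. Group means were 2.82 ± 1.50 and 0.565 ± 0.247 FPKM (SD, n = 4 each), a ratio of 4.99. The log2 fold change was 2.04 (SE 0.420, limma adjusted p = 0.0159), and without METTL3-Flox liver 3 it was 1.92 with an adjusted p of 0.0508. Selp shares 438 of its 4413 exon bases with the lincRNA gene Gm16548 on the opposite strand, and 186 with the antisense gene Gm16587. The strand setting of the counting was not given in the sources used here, so reads over these bases cannot be assigned. Gm16548 was at 1.66 to 3.38 FPKM with a log2 fold change of -0.12 (limma, adjusted p = 0.758). Gm16587 was at 0.826 ± 0.410 against 0.416 ± 0.184 FPKM (SD, n = 4 each), in the direction of Selp but not past the test (log2 fold change 0.81, limma adjusted p = 0.172).

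The selectin genes did not change by the same factor. The ratio of Sele to Selp within a liver was 0.699, 1.04, 0.899 and 0.851 in METTL3-HKD livers, so the transcripts were there at similar levels per length. In METTL3-Flox livers the ratio was 0.253, 0.126, 0.117 and 0.126, so Selp exceeded Sele in all 4. The means were 0.873 ± 0.142 and 0.155 ± 0.0649 (SD, n = 4 each), 2.55 apart on the log2 scale (exact permutation test, two-sided, p = 0.0286, the smallest that 4 against 4 livers allow). With the pseudocount of 0.1 FPKM added to both genes, the log2 difference was 1.55, with an adjusted p of 0.0476 over the 10 ratios compared (exact permutation p = 0.0286). With a pseudocount of 1 FPKM it was 0.34 and did not pass (exact permutation test, adjusted p = 0.107).

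**Figure D2:**
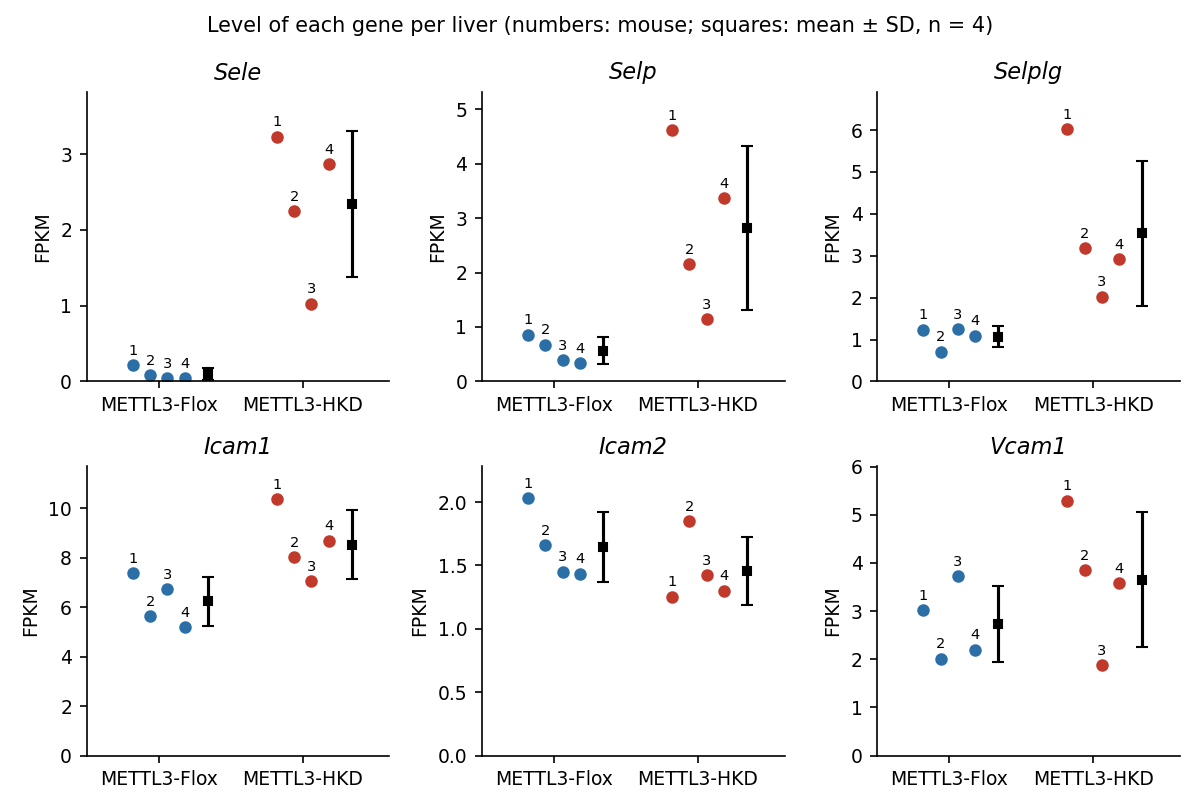
FPKM of each tested member on the vertical axis by group, with 1 numbered point per mouse and squares with bars for the mean ± SD (n = 4). Sele, Selp and Selplg separate the groups completely, and METTL3-HKD liver 1 is highest and liver 3 lowest of its group for every plotted gene apart from Icam2.

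Selplg (ENSMUSG00000048163, chromosome 5, minus strand, 113818536 to 113832644) encodes the leukocyte partner of these selectins. It was at 6.02, 3.18, 2.02 and 2.92 FPKM in METTL3-HKD livers and at 1.24, 0.710, 1.25 and 1.09 FPKM in METTL3-Flox livers. All METTL3-HKD livers were above all METTL3-Flox livers, and METTL3-HKD liver 1 lay well above the other three. Means were 3.53 ± 1.73 and 1.07 ± 0.251 FPKM (SD, n = 4 each), a ratio of 3.30. The log2 fold change was 1.55 (SE 0.310, limma adjusted p = 0.0147), and without METTL3-HKD liver 1 it was 1.27 with an adjusted p of 0.0216. Pooled over livers, 1156 reads stood against 280, a ratio of 3.38 after scaling for library size (95% exact interval 2.97 to 3.87, counting error only).

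Icam1 (ENSMUSG00000037405, chromosome 9, plus strand, 21015985 to 21028817), which encodes a ligand of beta-2 integrins, was the most abundant member in both groups. Which liver cells its reads came from was not tested. It was at 10.4, 8.02, 7.05 and 8.69 FPKM in METTL3-HKD livers and at 7.38, 5.64, 6.73 and 5.20 FPKM in METTL3-Flox livers. The groups overlapped through a single pair, since METTL3-HKD liver 3 lay below METTL3-Flox liver 1. Means were 8.53 ± 1.40 and 6.24 ± 0.996 FPKM (SD, n = 4 each), and the log2 fold change was 0.45 (SE 0.150, limma adjusted p = 0.0751). The interval of the fold change ran from 1.08 to 1.72. Icam1 passed the threshold under 3 of 16 alternative settings and did not pass under 13. It passed with array quality weights (limma, log2 fold change 0.47, adjusted p = 0.0437), with each library scaled to its own reads on genes (0.66, adjusted p = 0.0269), and without METTL3-HKD liver 3 (0.53, adjusted p = 0.0486). Without METTL3-HKD liver 1 the log2 fold change was 0.35 (limma, adjusted p = 0.178). Icam1 shares 511 exon bases with the antisense gene Gm47079, which was listed at 0 FPKM.

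Icam2 (ENSMUSG00000001029, chromosome 11, minus strand, 106377656 to 106388075) encodes an adhesion molecule that resting endothelium already carries. Its values were 1.25, 1.85, 1.42 and 1.30 FPKM in METTL3-HKD livers and 2.03, 1.66, 1.45 and 1.44 FPKM in METTL3-Flox livers. The groups lay across each other, with means of 1.46 ± 0.270 and 1.64 ± 0.278 FPKM (SD, n = 4 each). The log2 fold change was -0.17 (limma, adjusted p = 0.528), with an interval of the fold change from 0.687 to 1.16. Its sign depended on scaling, as it was 0.037 with each library scaled to its own reads on genes, where the median of all tested genes was 0.19.

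Vcam1 (ENSMUSG00000027962, chromosome 3, minus strand, 116109949 to 116129688) encodes a ligand of alpha-4 integrins that cytokines induce on endothelium and that liver macrophages can also carry. It was at 5.29, 3.86, 1.87 and 3.58 FPKM in METTL3-HKD livers and at 3.02, 2.02, 3.72 and 2.20 FPKM in METTL3-Flox livers. METTL3-HKD liver 3 was the lowest of all 8 and liver 1 the highest. Means were 3.65 ± 1.40 and 2.74 ± 0.788 FPKM (SD, n = 4 each). The log2 fold change of 0.35 did not pass the test (limma, adjusted p = 0.468), and the interval of the fold change, from 0.789 to 2.07, holds both lower and higher levels. Madcam1 (ENSMUSG00000020310, chromosome 10, plus strand, 79664559 to 79668537) had 0 reads in all 8 livers, and 3 reads would have given 0.104 to 0.147 FPKM. At this depth a level below that was not detectable.

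Ordered by mean level in METTL3-Flox livers, Icam1 stood at 6.24 FPKM, followed by Vcam1 at 2.74, Icam2 at 1.64, Selplg at 1.07, Selp at 0.565 and Sele at 0.0976. Neighbours whose ranges over livers overlapped were Vcam1 with Icam2 and Selplg with Selp. In METTL3-HKD livers the order was Icam1 at 8.53, Vcam1 at 3.65, Selplg at 3.53, Selp at 2.82, Sele at 2.34 and Icam2 at 1.46. Here Icam1 stood clear of Vcam1, while each later gene down to Icam2 overlapped its neighbour. Icam2 thus moved from the third place to the sixth, with both selectins and Selplg above it. Of the summed FPKM of Sele, Selp, Icam1, Icam2 and Vcam1, the selectins made up 17.3% to 31.7% in METTL3-HKD livers and 3.51% to 7.98% in METTL3-Flox livers. Icam1 made up 41.9% to 56.3% and 54.5% to 56.4%, and Icam2 5.06% to 11.4% and 11.8% to 16.5%.

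Because whole liver was sequenced, each tested member was also set beside pan-endothelial markers within the same liver. Selplg is a leukocyte gene, so for it these are not markers of the cells that carry it, and leukocyte markers are used below. Pan-endothelial markers such as Pecam1 and Cdh5 did not pass the test in either direction, with 0 of 12 called by limma, 0 by voom on rebuilt reads, and 2 at an unadjusted p under 0.05. Their summed level was 61.2 to 75.5 FPKM in METTL3-HKD livers and 59.5 to 70.1 FPKM in METTL3-Flox livers. Of 10 sinusoidal endothelial markers, 0 were higher and 3 lower (Mrc1, Oit3 and Stab1), with sums of 74.8 to 84.0 and 89.9 to 99.1 FPKM, but Oit3 and Stab1 did not pass with each library scaled to its own reads on genes. Relative to the pan-endothelial markers, Sele was 3.52 higher on the log2 scale in METTL3-HKD livers, Selp 1.97 and Selplg 1.48. Each had an exact permutation p of 0.0286 and an adjusted p of 0.0476 over the 10 ratios compared. Against the summed FPKM of the markers the differences were 3.53, 1.97 and 1.48 with the same exact p, but the adjusted p was 0.0571. Icam1 was 0.37 higher relative to the same markers (exact permutation p = 0.0571, adjusted p = 0.0714), Vcam1 0.28 higher (p = 0.371, adjusted p = 0.371) and Icam2 lower by -0.24 (p = 0.229, adjusted p = 0.254). Icam1 relative to Icam2 differed by 0.61 (exact permutation p = 0.0571, adjusted p = 0.0714).

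P-selectin is also made by megakaryocytes and platelets, and of 4 tested platelet markers Ppbp alone was called, at 0.45 to 1.79 FPKM against 0.121 to 0.229 (limma, log2 fold change 1.82, adjusted p = 0.0252). The summed level of all 7 platelet markers was 3.28 to 10.5 FPKM in METTL3-HKD livers and 1.17 to 3.35 FPKM in METTL3-Flox livers, and Gp1bb was at 0 in all 8. Whether Selp was higher relative to these markers depended on how the list was summarised. Against the mean log2 level of all 7, of which 3 were too low to test, the difference was 1.23 (exact permutation p = 0.0286, adjusted p = 0.0476). Against the 4 tested markers it was 0.86 (exact permutation p = 0.0286, adjusted p = 0.0476). Against their summed FPKM the groups overlapped and it was 0.71, which did not pass (exact permutation p = 0.0571, adjusted p = 0.0714).

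Selplg is a leukocyte gene, and neutrophil markers were higher in the same livers. The monocyte and macrophage list and the lymphocyte list did not rise as a set. Among 10 monocyte and macrophage markers 1 was higher and 3 were lower, and 0 of 6 tested lymphocyte markers were called. Of 11 tested neutrophil markers, 8 were higher and 0 lower in METTL3-HKD livers, with a median log2 fold change of 3.34. Ngp (2.56), Camp (0.03) and Elane (-0.54) did not pass, and Ltf and Mpo were too low to test. The summed level of all 13 neutrophil markers was 334 to 1641 FPKM against 14.4 to 47.9 FPKM, with the highest value in METTL3-HKD liver 1, where Selplg and Selp were also highest. Most of each sum was S100a8 (99.6 to 519 against 3.32 to 16.9 FPKM) and S100a9 (195 to 867 against 6.55 to 20.5 FPKM). Ly6g, which defines mouse neutrophils, was at 0.235 to 3.38 FPKM in METTL3-HKD livers and at 0 in 3 of the METTL3-Flox livers. Of 6 pan-leukocyte markers, 2 were higher (Coro1a and Ptprc), with sums of 38.5 to 123 and 28.5 to 41.1 FPKM. Their log2 fold changes were 1.94 for Coro1a, 1.36 for Cd53, 1.17 for Ptprc, 0.48 for Arhgdib, 0.34 for Lcp1 and 0.18 for Laptm5. That of Selplg, 1.55, lay below Coro1a and above the rest. Relative to the mean log2 level of the 6 markers, Selplg was 0.64 higher on the log2 scale (exact permutation p = 0.0286, adjusted p = 0.0476), at -1.33 ± 0.0404 against -1.98 ± 0.229 (SD, n = 4 each). Against their summed FPKM it was also 0.64 higher, with an adjusted p of 0.0571 (exact permutation test). The ratio was nearly the same in all METTL3-HKD livers, although their Selplg levels spanned 2.98-fold. The part of neutrophil number in the level of Selplg or of the selectins was not tested.

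**Figure D3:**
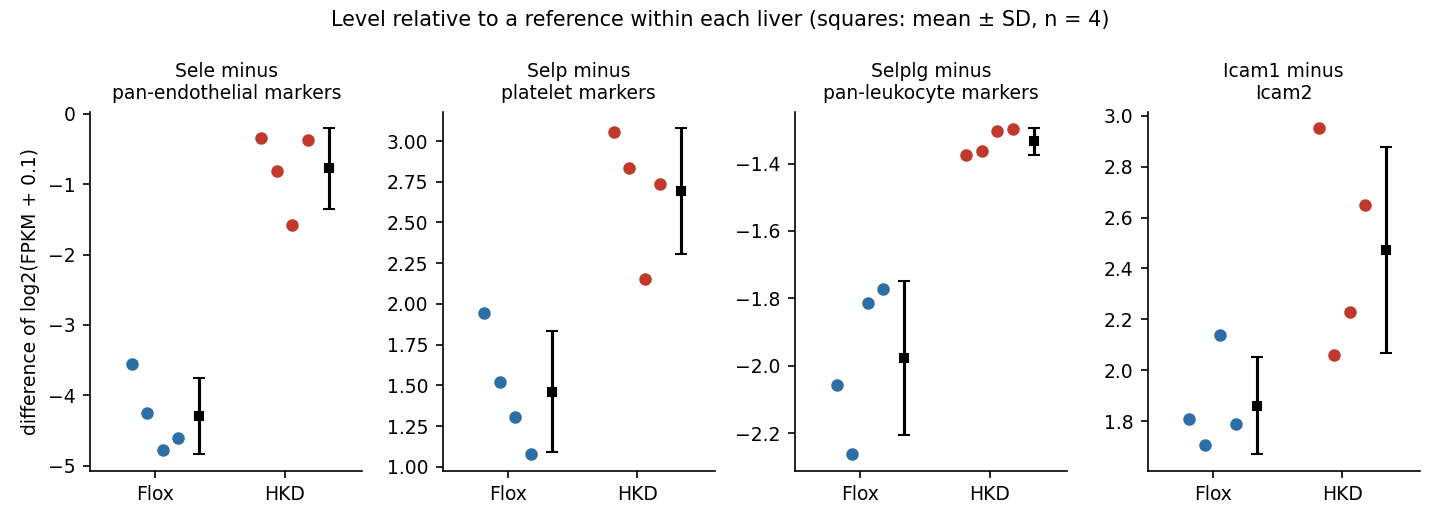
Level of a member minus that of its reference within the same liver, in log2(FPKM + 0.1), with 1 point per liver and squares with bars for the mean ± SD (n = 4). For Sele beside pan-endothelial markers and Selplg beside pan-leukocyte markers the groups do not overlap, nor for Selp beside the mean of 7 platelet markers, though they do overlap beside the platelet sum (not drawn), and for Icam1 beside Icam2 METTL3-HKD liver 2 lies below METTL3-Flox liver 3. Each panel has its own vertical scale, which does not start at 0.

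**Figure D4:**
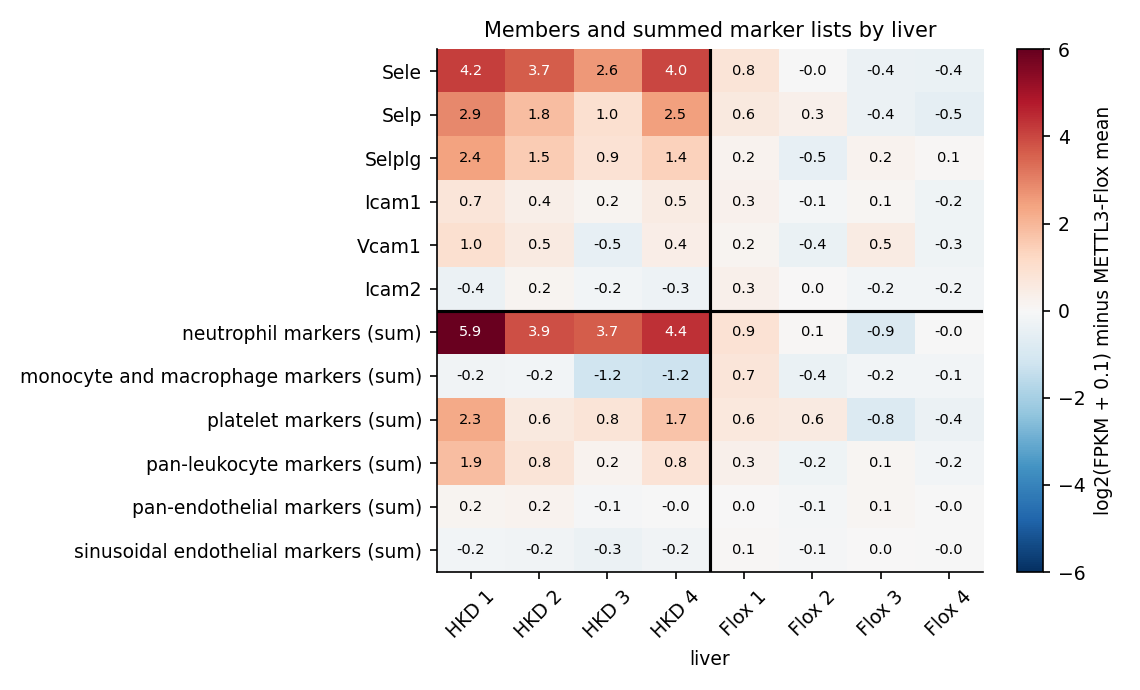
Difference from the METTL3-Flox mean in log2(FPKM + 0.1), by colour and printed value, for 6 members and for summed marker lists (rows) in each of the 8 livers (columns). METTL3-HKD liver 1 holds the highest Sele, Selp and Selplg and the highest neutrophil sum, while the pan-endothelial row stays near 0 in all livers.

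The other molecules that act with these genes were counted in 6 lists. Among 9 selectin ligands, 7 were tested, 3 were higher, 0 lower and 4 did not pass, with a median log2 fold change of 0.66. Cd24a, a mucin-like P-selectin ligand that is also found on biliary cells, was at 5.78 ± 3.55 against 0.937 ± 0.341 FPKM (SD, n = 4 each). Cd44, a hyaluronan receptor that can bind E-selectin, was at 9.36 ± 6.20 against 2.48 ± 0.341 FPKM. Podxl, a sialomucin, was at 2.88 ± 0.447 against 1.64 ± 0.472 FPKM, and it passed under 9 of 16 alternative settings. Cd24a and Cd44 passed under all 16. Cd34, a sialomucin of vessels and progenitor cells, did not pass (log2 fold change 0.60, limma adjusted p = 0.162). Glycam1, an addressin of lymph node venules like Madcam1, was at 0 in every liver.

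Selectins bind fucosylated and sialylated sugars, and the enzymes that make them did not move as a block. Of 10 tested genes of glycosylation and sulfation, 1 was higher, 3 were lower and 6 did not pass, with a median log2 fold change of 0.09. The sialyltransferase St3gal3 was at 18.9 ± 2.33 against 31.5 ± 5.23 FPKM (log2 fold change -0.72, limma adjusted p = 0.0146) and passed under all 16 alternative settings. St3gal4 (30.0 ± 2.48 against 41.9 ± 6.59 FPKM) and Tpst1 (8.42 ± 0.622 against 12.0 ± 1.31 FPKM), which sulfates tyrosines such as those of PSGL-1, were lower but did not pass with each library scaled to its own reads on genes. Gcnt1, which starts the core 2 branches of PSGL-1 sugars, was at 0.749 ± 0.604 against 0.118 ± 0.0719 FPKM (log2 fold change 1.82, limma adjusted p = 0.0342), but it passed under only 5 of 15 alternative settings. Fut7, the leukocyte fucosyltransferase of selectin ligands, was below the minimum mean of 0.1 FPKM and was not tested. Hepatocytes also express several of these enzymes.

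Of 7 tested integrin subunits that bind ICAM or VCAM-1 proteins or MAdCAM-1, 4 were higher, 0 lower and 3 did not pass, with a median log2 fold change of 1.07. The ICAM-1 receptor subunit Itgam was at 1.98 ± 1.39 against 0.448 ± 0.195 FPKM (log2 fold change 1.79, limma adjusted p = 0.0255). Itgax was at 0.604 ± 0.322 against 0.148 ± 0.116 FPKM and Itgb7 at 1.83 ± 0.960 against 0.607 ± 0.227 FPKM. Itgb1, common to many cell types, was at 64.4 ± 10.3 against 45.5 ± 1.79 FPKM. Itgal, the LFA-1 subunit, had a log2 fold change of 0.14 (limma, adjusted p = 0.773), and the VCAM-1 receptor subunit Itga4 had one of 0.56 (adjusted p = 0.218). The count of 4 was unstable, as it fell to 0 without METTL3-Flox liver 3 and to 1 without METTL3-HKD liver 1, METTL3-HKD liver 2, METTL3-Flox liver 2 or METTL3-Flox liver 4.

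Among 12 tested junctional and transmigration molecules, 2 were higher (Alcam, log2 fold change 0.60, and Mcam, 0.66), 3 were lower (Clec14a, -0.84, Cd99l2, -0.43, and Cd47, -0.37) and 7 did not pass. The 3 lower genes did not pass with each library scaled to its own reads on genes. Alcam passed under 9 of 16 alternative settings and Mcam under 8. With any 1 liver omitted, at most 1 gene of this list was called higher. Pecam1, which guides leukocytes through endothelial junctions, did not pass (log2 fold change 0.39, limma adjusted p = 0.0729). Of 5 tested genes of shedding and membrane anchoring, 2 were higher and 3 did not pass. These 2 were the actin linkers Ezr (8.45 ± 3.86 against 2.36 ± 0.411 FPKM) and Msn (14.8 ± 5.19 against 6.80 ± 0.543 FPKM), which bind the tails of ICAM-1 and PSGL-1. The third linker of this family, Rdx, was at 33.4 ± 5.33 against 46.5 ± 7.54 FPKM and did not pass (log2 fold change -0.48, limma adjusted p = 0.0665). It was called lower under 4 of 16 alternative settings. Adam17, a protease that sheds adhesion molecules from the cell surface, had a log2 fold change of 0.15 (limma, adjusted p = 0.365).

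Cytokines that induce these adhesion molecules, and the NF-kB pathway that acts downstream, formed the last list. All 15 were tested, and 5 were higher, 1 lower and 9 did not pass, with a median log2 fold change of 0.42. Il1b was at 34.1 ± 25.3 against 1.83 ± 0.694 FPKM (log2 fold change 3.93, limma adjusted p = 0.00381). Tnf was at 0.885 ± 0.204 against 0.166 ± 0.148 FPKM (log2 fold change 2.06, adjusted p = 0.0158 by limma). Nfkb1 (log2 fold change 0.67), Nfkb2 (0.82) and Tnfaip3 (1.19) were also higher. Irf1 had a log2 fold change of -0.44 (limma, adjusted p = 0.0462) and did not pass with each library scaled to its own reads on genes. Rela, the main activating NF-kB subunit, did not pass (log2 fold change 0.19, limma adjusted p = 0.219), nor did Il1a (-0.03, adjusted p = 0.955).

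**Figure D5:**
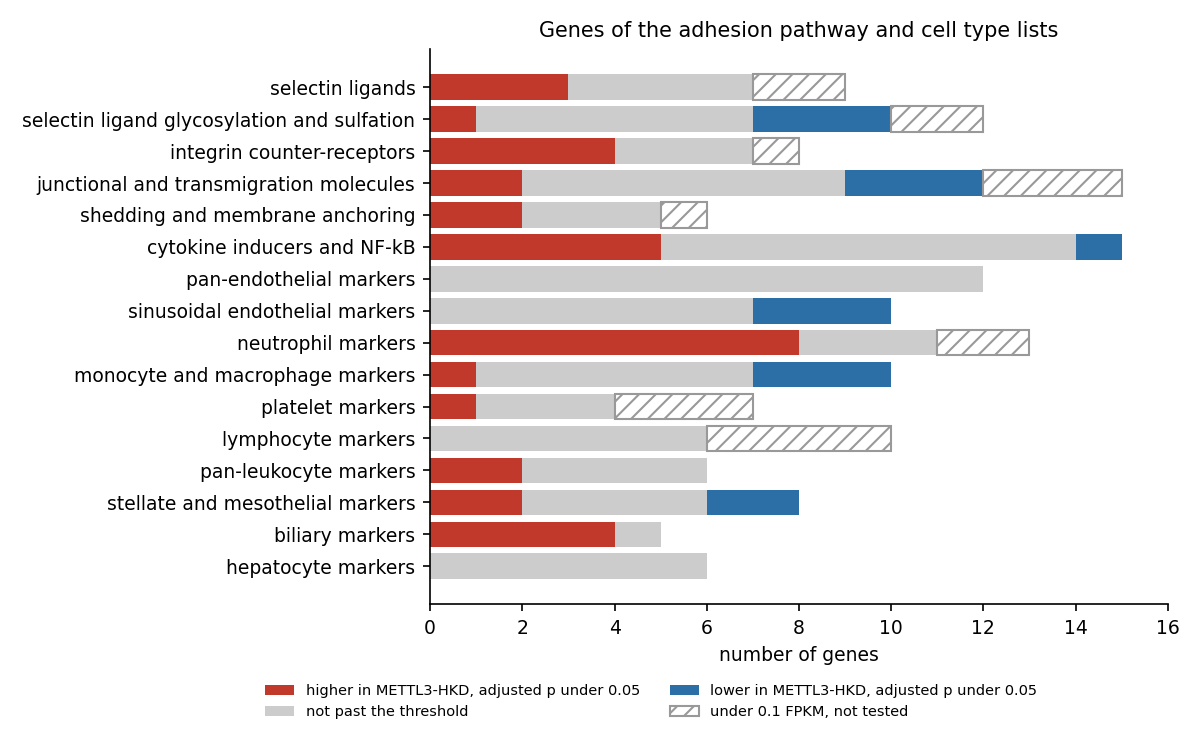
Number of genes on the horizontal axis for each adhesion pathway list and cell type marker list, split into genes higher in METTL3-HKD livers, not past the threshold, lower, and under 0.1 FPKM and so not tested. Neutrophil markers have 8 higher genes, and the 12 pan-endothelial markers have 0 in either direction.

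The genes most like each called member across the 8 livers were sought among 10694 genes that averaged 1 FPKM or more. Likeness was the root mean square difference of standardized log2 values, where 0 would mean the same profile. Standardizing removes the size of a difference, so genes with unlike fold changes can be close. Closest to Sele were Twistnb (0.118), Hilpda (0.144) and H3f3b (0.144). Hilpda, a hypoxia-inducible lipid droplet protein, was at 33.9 FPKM in METTL3-HKD livers and 2.02 FPKM in METTL3-Flox livers. Closest to Selp were Rrn3 (0.121), Esf1 (0.148) and Osmr (0.174), the last of which encodes a subunit of the oncostatin M receptor. Closest to Selplg were Il4ra (0.102), Phrf1 (0.116) and Pim1 (0.139). Il4ra encodes the interleukin 4 receptor subunit, and its mean was 13.9 FPKM in METTL3-HKD livers and 7.52 FPKM in METTL3-Flox livers.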

How the data were processed

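RNA sequencing of livers from 4 METTL3-HKD and 4 METTL3-Flox mice was analysed. Groups follow the sample labels, and each label names a separate mouse. RNA was extracted with an RNeasy kit and libraries were made with a SMARTer mRNA-Seq kit. The authors deposited FPKM with the gene length for 54532 genes, and the submitters' processing notes name GRCm38 and mm10. Alignment, read counting, gene annotation and strand setting were not given in the sources used here. Deposited coordinates of all members were the same in GENCODE M21.

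FPKM multiplied by gene length and an effective library size gave whole reads (tolerance 0.01) for 100% of non-zero values. These effective sizes (14210943 to 20114825, larger in every METTL3-HKD liver than in any METTL3-Flox liver) differ from the reads on genes. The FPKM had therefore been scaled between libraries. Read intervals and floors (3 reads) cover counting error only, since the reads carry no molecular identifiers.

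The 16645 genes averaging 0.1 FPKM or more were tested with limma 3.58.1 (trend, log2(FPKM + 0.1), Benjamini-Hochberg) in R 4.3.3. Permutation tests with scipy 1.17.1 in Python 3.11.15 enumerated all 70 arrangements. Ratios of a member to the mean log2 of a marker list were compared for 10 pairs. Alternatives were a pseudocount of 1 FPKM, a minimum of 1 FPKM or none, no trend, array quality weights, a replicate block, scaling to the reads on genes, voom on rebuilt reads, and omission of each liver. Ratios with no pseudocount and other summaries of the marker lists were added after the values were seen. The procedure was tested on simulated data. The text names all members, Mettl3, up to 4 genes of each pathway list by smallest adjusted p with any called gene of the opposite direction, and the 3 genes most like each called member. Tnfaip3, Itgal, Itga4, Pecam1, Rela, Il1a, Glycam1, Fut7, the genes overlapping members, and the markers named singly are exceptions to it, picked with their values in view. A gene of the selectin ligand list is not reported here and was left out of its counts. Members and lists were chosen with earlier results of these data known.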

Additional observations from a re-analysis of the deposited data

Results flagged for a closer look

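Of 34 groups of 4 livers examined for the members and their ratios, 1 held a liver that stood apart from the others, and chance alone marks about 1 group in 20. Selplg relative to the pan-endothelial markers was -2.12 on the log2 scale in METTL3-Flox liver 2, while the other METTL3-Flox livers lay between -1.56 and -1.48. The gap made up 0.877 of the group's range, above the critical value of Dixon's test for 4 samples. Without this liver, the difference between the groups was 1.33.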

How the results depend on the processing

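Sele and Selplg kept their direction and passed the threshold under all 16 alternatives of the limma fit, with log2 fold changes of 1.56 to 4.61 and 1.07 to 1.78. Selp passed under 15 of 16 (1.21 to 2.40). The lowest values came with a pseudocount of 1 FPKM. Icam1 passed under 3 of 16, among them array quality weights (0.47) and scaling by reads on genes (0.66), where its exact test gave a difference of 3.54 FPKM. Icam2 changed sign with that scaling, to 0.037 on the log2 scale and to a difference of 0.0655 FPKM by the exact test. That scaling moved the median of all genes tested from -0.00 to 0.19, and relative to this median Icam1 stood at 0.47 and Icam2 at -0.16. It also moved the share of calls that were higher from 57.7% to 86.0%. Over omissions of single livers, log2 fold changes spanned 3.41 to 3.93 for Sele, 1.76 to 2.40 for Selp, 1.27 to 1.78 for Selplg, 0.35 to 0.53 for Icam1, -0.28 to -0.07 for Icam2 and 0.15 to 0.63 for Vcam1. With 3 against 4 livers, the exact test can give no p below 0.0571.

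Ratios within a liver spanned, over the same omissions, 3.36 to 3.79 for Sele, 1.72 to 2.26 for Selp and 1.23 to 1.63 for Selplg relative to pan-endothelial markers, 0.55 to 0.71 for Selplg relative to pan-leukocyte markers, 1.10 to 1.41 for Selp relative to platelet markers and 1.45 to 1.65 for Sele relative to Selp. With a pseudocount of 1 FPKM, Sele relative to Selp was 0.34 and no longer passed, and Icam1 relative to Icam2 was 0.50 and passed. That pseudocount also lowered Sele, Selp and Selplg relative to pan-endothelial markers to 1.50, 1.16 and 1.01 and Selplg relative to pan-leukocyte markers to 0.30, all still past the threshold. Against summed FPKM of the markers, chosen after seeing the data, the differences were 3.53, 1.97, 1.48 and 0.64, and Selp relative to platelet markers was 0.71. There the 4 former kept an exact p of 0.0286, but their adjusted p was 0.0571, since fewer of the 10 ratios reached the smallest p. With no pseudocount, Sele relative to Selp was 2.55 and Icam1 relative to Icam2 was 0.63. The cause of these shifts was not tested.

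Replicate numbers are shared between the groups. Deviations of same-numbered livers from their group means had correlations of 0.07, -0.08, -0.01 and -0.03, beside -0.07 to 0.09 for the other pairs. Such values cannot show whether same-numbered mice shared a litter or a batch. With the replicate block, 3 members were still called, and over all genes 971 were higher and 645 lower in place of 1506 and 1104. An exact sign-flip test over the 4 replicate numbers allows no p below 0.125, so the 6 ratios that passed could not pass there, at the same values of 3.52, 1.97, 1.48, 0.64, 1.23 and 1.55. Calls over all genes fell to 747 higher and 355 lower without METTL3-Flox liver 3, and to 783 and 475 without METTL3-HKD liver 1. With no minimum, 1204 were higher and 682 lower.

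Counts in the gene lists stayed within 1.5 times in 400 of 512 comparisons and moved in 112. The 400 include counts that were 0 under every setting, such as those of hepatocyte and lymphocyte markers. These say little about how stable the other counts were. Selectin ligands had 2 to 3 higher genes and neutrophil markers had 7 to 9, whereas the higher counts ran from 0 to 5 for integrins, 3 to 9 for cytokines and NF-kB and 0 to 3 for junctional molecules. For glycosylation, the higher count was 0 or 1. Lower counts ran from 1 to 3 for glycosylation and from 0 to 3 for junctional molecules.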

Other observations

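Cell types that are not leukocytes or endothelium gave a mixed picture in the same livers. Of 5 biliary markers, 4 were higher in METTL3-HKD livers, with sums of 119 to 369 FPKM against 52.5 to 77.6 FPKM. Most of each sum was Spp1 alone, at 109 to 355 FPKM against 46.4 to 73.5 FPKM. Spp1, which encodes osteopontin and is made by biliary cells and macrophages, was at 208 ± 104 FPKM against 60.3 ± 14.6 FPKM (SD, n = 4 each), with a log2 fold change of 1.68 (limma, adjusted p = 0.0136). Of 8 stellate and mesothelial markers, 2 were higher and 2 lower, and their sums overlapped at 39.6 to 50.4 and 38.6 to 68.7 FPKM. Without METTL3-HKD liver 1, 2 biliary markers and 0 stellate and mesothelial markers were higher.

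Macrophages can carry VCAM-1, and of 10 monocyte and macrophage markers, 1 was higher and 3 were lower in METTL3-HKD livers, with sums of 61.2 to 129 and 109 to 237 FPKM. The 3 lower genes were the resident macrophage genes Clec4f, Timd4 and Vsig4, and 0 were lower with each library scaled to its own reads on genes. Clec4f was at 25.1 ± 10.1 against 62.2 ± 27.5 FPKM (SD, n = 4 each). Lymphocyte markers had 0 of 6 tested genes called by limma, 0 by voom and 0 at an unadjusted p under 0.05, and the counts for the 6 hepatocyte markers were the same.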
